A study of Homo sapiens with 9 samples.

Results

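The genes described here are 36 glycolytic and hypoxia-induced genes, taken from a fixed list of symbols matched by Ensembl identifier, of the 58381 genes counted in each library. The choice rule names symbols and uses no expression value, and all 36 were found. The symbols were nevertheless chosen with earlier results of these data known. They comprise 22 genes of the path from glucose uptake to lactate export and 14 genes of the hypoxia response. They were measured in EGI-1, a human cell line from a cancer of the bile ducts (cholangiocarcinoma), which expressed a tetracycline-inducible short hairpin RNA. The GFPsh group carried a control hairpin. FOSL1sh3 and FOSL1sh10 carried different hairpins against FOSL1, the gene of the transcription factor FRA-1 of the AP-1 family, and each group had 3 RNA libraries. All 3 groups, the controls included, were grown in medium with 10% serum and given 4 days of doxycycline at 2 ug per ml, then seeded and collected 24 h later. All libraries therefore come from 1 cell line, and no group without doxycycline or without a hairpin was analysed here. The labels give no oxygen level, so the genes were followed across hairpins in a common culture condition and not across oxygen levels. Whether the replicates were separate cultures is not stated, and the p-values then describe the spread among these libraries alone, which may be technical.

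Glycolysis splits glucose into pyruvate, and tumour cells often send much of that pyruvate to lactate even when oxygen is present. When oxygen falls, prolyl hydroxylases stop marking the subunit HIF-1 alpha for destruction, and the HIF complex then binds short ACGTG or GCGTG sites, called hypoxia response elements, near many glycolytic genes and near genes for blood vessel growth, pH control and mitophagy. AP-1 factors such as FRA-1 bind the different site TGANTCA.

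FOSL1 was checked first. It stood at 303, 257 and 182 CPM (counts scaled to a common library size by TMM) in GFPsh replicates 1, 2 and 3, at 72.3, 70.3 and 44.9 CPM in FOSL1sh3, and at 70.9, 57.1 and 65.8 CPM in FOSL1sh10. Every hairpin library lay below every control library. The log2 fold change was -1.98 with FOSL1sh3 (SE 0.198, edgeR adjusted p = 1.2e-05), and -1.94 with FOSL1sh10 (SE 0.197, edgeR adjusted p = 1.03e-05). The hairpins differed from each other by -0.05 in FOSL1 (95% interval -0.46 to 0.36). Library totals ranged from 6893026 to 10604251 counts, and a gene with 0 counts could still have been present at up to 3 counts, equal to 0.283 CPM in the deepest and 0.435 CPM in the shallowest library. This limit covers counting error only. The 36 genes took 0.612% to 0.855% of the counts of a library. The 10 biliary and epithelial markers were all detected, with a summed level of 11288 to 14237 CPM over the libraries. Markers of other cells were low: 7 of 10 leukocyte, 7 of 10 fibroblast and endothelial, 9 of 10 hepatocyte and 5 of 5 erythroid markers had at most 10 counts in every library. Of these lists 3 leukocyte, 5 fibroblast and endothelial, 3 hepatocyte and 1 erythroid marker had 0 counts in all libraries. The summed leukocyte markers ranged from 24 to 30.2 CPM in GFPsh, 23.7 to 34.9 CPM in FOSL1sh3 and 31.4 to 37.2 CPM in FOSL1sh10. The summed fibroblast and endothelial markers ranged from 2.93 to 4.74, 4.31 to 8.02 and 8.13 to 9.58 CPM in the same order, and the hepatocyte markers from 6.39 to 7.86, 8.51 to 11.8 and 13.8 to 17.6 CPM. All 3 sums were thus higher in FOSL1sh10 than in GFPsh without overlap, and the erythroid sum was at most 1.65 CPM in any library. Most of the hepatocyte sum was SERPINA1, whose levels are given at the end. The labels name 1 cell line and no other cells, and the part of these marker levels in the results below was not tested. In these bulk libraries fewer cells of a kind and less RNA per cell cannot be told apart.

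The sequences around the start sites are shown for 5 of the 6 genes whose level differed between the hairpins, so that the hypoxia response element cores can be seen beside the values that follow. Of the 36 genes, 33 matched the RefSeq promoter table (GRCh38.p14), with 63 start sites, each given as 300 bases from 250 before the start to 50 after it. VEGFA, NDRG1 and BNIP3L had no window there, so the motif shares below leave them out. The LDHA window is chr11:18394313-18394612 on the plus strand and the ALDOC window is chr17:28576846-28577145 on the minus strand. The ENO2 window is chr12:6914330-6914629 on the plus strand, the EGLN1 window is chr1:231422238-231422537 on the minus strand, and the PFKL window is chr21:44299803-44300102 on the plus strand. LDHA has a further window downstream that is not printed, and PFKM has 7 windows, of which 2 hold a match. Each is written 5′ to 3′ on the strand of its gene, and capitals mark matches, on either strand, of the hypoxia response element core and of the AP-1 site given above.
LDHA: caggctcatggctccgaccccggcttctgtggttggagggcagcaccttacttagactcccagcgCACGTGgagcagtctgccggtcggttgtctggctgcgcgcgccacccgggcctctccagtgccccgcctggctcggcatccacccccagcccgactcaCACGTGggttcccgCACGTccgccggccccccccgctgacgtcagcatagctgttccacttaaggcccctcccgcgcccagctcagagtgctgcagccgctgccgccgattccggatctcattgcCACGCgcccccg
ALDOC: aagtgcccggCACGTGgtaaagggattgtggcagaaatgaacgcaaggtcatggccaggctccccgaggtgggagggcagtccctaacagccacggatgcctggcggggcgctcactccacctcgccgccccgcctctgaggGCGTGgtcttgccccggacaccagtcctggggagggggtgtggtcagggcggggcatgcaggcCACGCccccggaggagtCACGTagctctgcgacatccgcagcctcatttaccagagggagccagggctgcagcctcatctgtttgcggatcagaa
ENO2: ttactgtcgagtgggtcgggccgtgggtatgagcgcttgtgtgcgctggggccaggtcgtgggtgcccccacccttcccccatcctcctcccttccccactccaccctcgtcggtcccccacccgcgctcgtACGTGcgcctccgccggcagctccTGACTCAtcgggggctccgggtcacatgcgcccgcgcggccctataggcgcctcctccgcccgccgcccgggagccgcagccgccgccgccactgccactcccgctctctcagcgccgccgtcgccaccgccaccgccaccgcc
EGLN1: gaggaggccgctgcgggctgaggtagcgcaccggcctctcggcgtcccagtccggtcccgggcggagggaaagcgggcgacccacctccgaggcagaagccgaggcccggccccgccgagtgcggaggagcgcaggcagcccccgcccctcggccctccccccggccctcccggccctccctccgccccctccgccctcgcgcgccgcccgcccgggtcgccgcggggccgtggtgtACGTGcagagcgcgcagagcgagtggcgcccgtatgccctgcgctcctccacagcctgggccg
PFKL: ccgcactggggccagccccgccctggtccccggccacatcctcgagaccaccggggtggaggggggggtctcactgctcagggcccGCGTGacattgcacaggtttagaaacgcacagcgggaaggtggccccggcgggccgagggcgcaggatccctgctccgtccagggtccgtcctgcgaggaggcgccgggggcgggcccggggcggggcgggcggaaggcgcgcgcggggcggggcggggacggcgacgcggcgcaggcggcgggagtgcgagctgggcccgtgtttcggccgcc
The LDHA window held 5 matches of ACGTG and 1 of GCGTG, since each CACGTG reads as ACGTG on both strands and counts as a pair. CACGTG is also the E-box bound by MYC and its relatives. ALDOC held 3 matches of ACGTG and 2 of GCGTG, EGLN1 held 1 ACGTG and PFKL held 1 GCGTG. ENO2 held 1 ACGTG, beginning 118 bases before the start, and 1 TGANTCA, beginning 94 bases before it. A hypoxia response element core was found in 43 of the 63 windows (68.3%) and in 48.4% of the 35116 promoter windows of all genes. TGANTCA was found in 5 of the 63 windows (7.94%) and in 7.71% of all windows. Counted by gene, 31 of 33 had a core in at least 1 window, against 52.4% of 27305 genes. The 33 genes had 63 windows and the 27305 genes had 35116, so the listed genes had more windows each in which to match. These matches describe letters in the windows and not binding.

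Of the 36 genes, 32 had enough counts to be tested. With FOSL1sh3, 1 rose and 1 fell: PFKL, the liver-type phosphofructokinase, was higher and PGAM1, a phosphoglycerate mutase, was lower. These are 2 of 32 genes, or 6.25%, where 10.9% of all 12814 tested genes were called in this comparison, 5.21% as higher and 5.65% as lower (edgeR, adjusted p under 0.05). With FOSL1sh10, 1 of 32 rose, VEGFA, the vascular endothelial growth factor, and 0 fell. This is 3.12%, where 5.28% of all tested genes were called, 3.13% as higher and 2.15% as lower. With 32 genes these counts are near what the shares over all genes would give. The FOSL1sh3 count was 6 of 36 without the low-count filter and 4 of 32 with DESeq2. Shares over all genes were not counted under these settings, and the shares above do not apply to them. At an unadjusted p under 0.05 there were 10 genes with FOSL1sh3 and 5 with FOSL1sh10. No share over all genes was counted at that unadjusted level, here or for the lists below, so no excess is read from such counts. The median log2 fold change over the 32 genes was -0.07 with FOSL1sh3 and 0.09 with FOSL1sh10, beside 0.01 and 0.00 over all tested genes. The comparisons share their GFPsh libraries.

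Between the hairpins themselves 6 of 32 genes differed, or 18.8%, where 12.7% of all tested genes were called, 5.74% as higher and 7.00% as lower. PFKL and PFKM, a muscle-type phosphofructokinase, were higher in FOSL1sh3, while ALDOC, an aldolase, ENO2, the neuron-type enolase, LDHA, a lactate dehydrogenase subunit, and EGLN1, an oxygen-sensing prolyl hydroxylase, were lower. The median difference over the 32 genes was -0.14, beside 0.00 over all tested genes. When libraries were scaled by their totals alone, which moved the median of all genes to -0.17, the calls between hairpins numbered 1 higher and 9 lower. The same scaling gave 1 higher and 2 lower with FOSL1sh3. The share of all genes called under this scaling was not counted. Between the hairpins, 6 calls became 3 without FOSL1sh3 replicate 3 and 2 without FOSL1sh10 replicate 2. The 2 calls with FOSL1sh3 became 1 without GFPsh replicate 2, GFPsh replicate 3 or FOSL1sh3 replicate 3, and 4 without FOSL1sh3 replicate 2.

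The libraries of a hairpin and the controls were fully apart in 3 genes higher and 4 lower with FOSL1sh3, where 29.2% of all tested genes did not overlap, 14.7% higher and 14.5% lower. With FOSL1sh10 they were apart in 6 higher and 0 lower, where 27.3% did not overlap, 14.3% higher and 13.0% lower. FOSL1sh3 and FOSL1sh10 were apart in 2 higher and 8 lower, where 30.7% did not overlap, 14.8% higher and 15.9% lower.

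**Figure D1:**
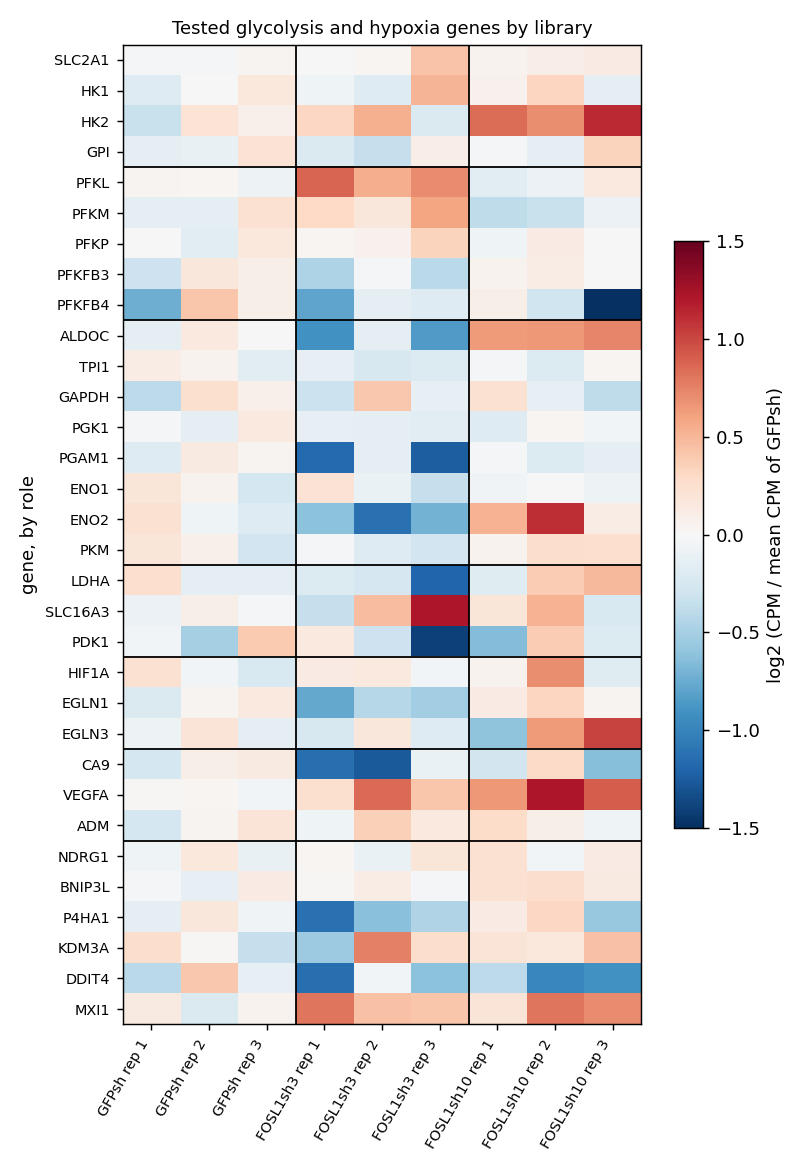
Colour gives log2 of the TMM-scaled CPM over the mean CPM of GFPsh for the 32 tested genes (rows, ordered by role) in each of the 9 libraries (columns). PFKL is above the control mean in the 3 FOSL1sh3 libraries, and VEGFA is above it in all 6 hairpin libraries.

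**Figure D2:**
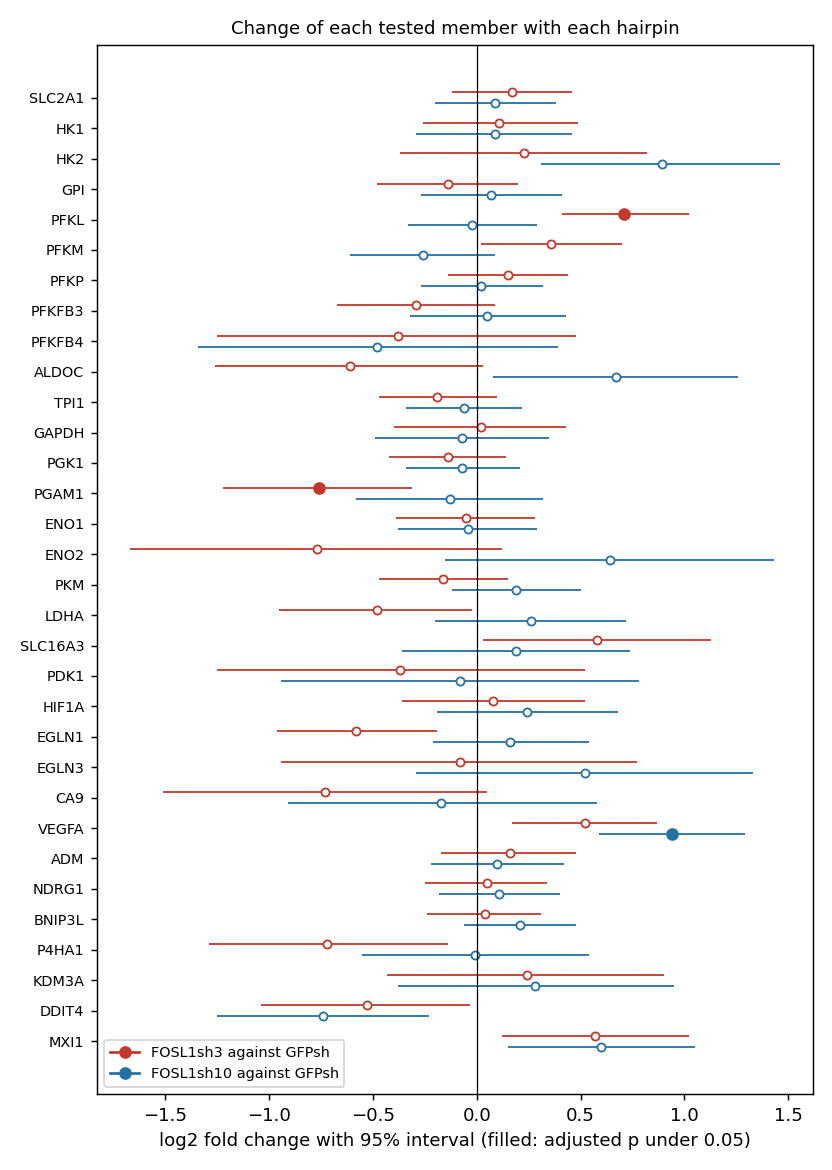
Points give the log2 fold change against GFPsh of each tested gene with FOSL1sh3 and with FOSL1sh10, lines give 95% intervals, and filled points passed an adjusted p of 0.05. Filled points are PFKL (0.71) and PGAM1 (-0.76) for FOSL1sh3 and VEGFA (0.94) for FOSL1sh10, and most intervals cross 0.

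Glucose entry was measured by SLC2A1, the glucose transporter GLUT1, and by the enzymes that trap and isomerise glucose, HK1, HK2 and GPI. SLC2A1 stood at 376, 374 and 391 CPM in GFPsh, 383, 389.6 and 509.9 CPM in FOSL1sh3, and 396, 409 and 414 CPM in FOSL1sh10. The FOSL1sh10 libraries lay just above the controls, and the log2 fold change was 0.09 (SE 0.138, edgeR adjusted p = 0.775). FOSL1sh3 overlapped the controls, with replicate 3 well above the other 2. HK2, the inducible hexokinase of many tumours, was at a low level of 3.17, 4.61 and 4.19 CPM in GFPsh, 4.93, 5.77 and 3.44 CPM in FOSL1sh3, and 7.13, 6.45 and 8.66 CPM in FOSL1sh10. Its gene lies at chr2:74833981-74893359 (hg38). All FOSL1sh10 libraries exceeded all controls, but the change of 0.89 did not pass the test (SE 0.272, edgeR adjusted p = 0.0671). It passed when libraries were scaled by their totals alone (0.99, edgeR adjusted p = 0.0354) and when only the 2 groups compared were fitted (0.88, edgeR adjusted p = 0.0384). HK1, the constitutive hexokinase, had means of 95.7, 103 and 102 CPM in GFPsh, FOSL1sh3 and FOSL1sh10, with overlapping libraries. Per kilobase of exon, the control level of HK1 was 15.2 CPM and that of HK2 0.658 CPM, although reads of a 3′ tag protocol do not scale with length. The log2 ratio of HK2 to HK1 counts within a library was 0.81 higher in FOSL1sh10 than in GFPsh (exact permutation test, two-sided p = 0.1, the smallest that 3 against 3 can give). GPI, glucose phosphate isomerase, changed by -0.14 and 0.07 and did not pass the test with either hairpin.

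Phosphofructokinase, encoded by PFKL, PFKM and PFKP, carries out the committing step of glycolysis. Of the 5 tested genes of this step and its regulators, 1 rose with FOSL1sh3, where 5.21% of all tested genes were called higher. PFKL (chr21:44300051-44327376) stood at 36.4, 36.1 and 33.4 CPM in GFPsh, 64.6, 51.4 and 57.5 CPM in FOSL1sh3, and 31.5, 33.2 and 39.2 CPM in FOSL1sh10. The FOSL1sh3 libraries were all above the other 6, which overlapped each other. The rise with FOSL1sh3 was 0.71 on the log2 scale (SE 0.146, edgeR adjusted p = 0.00516) and that with FOSL1sh10 was -0.02 (95% interval -0.33 to 0.29). The difference between the hairpins was 0.74 (SE 0.146, edgeR adjusted p = 0.00311). PFKL passed the test against GFPsh in all alternatives run, including each left-out library, with an adjusted p of at most 0.0271.

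PFKM (chr12:48105139-48146404) moved in the same sense between the hairpins. Its libraries stood at 30.3, 30.4 and 39.1 CPM in GFPsh, 40.8, 37.5 and 50.01 CPM in FOSL1sh3, and 25.5, 26.3 and 31.3 CPM in FOSL1sh10. The hairpins did not overlap each other, while GFPsh overlapped both. FOSL1sh3 exceeded FOSL1sh10 by 0.62 (SE 0.165, edgeR adjusted p = 0.0194), and the changes against GFPsh, 0.36 and -0.26, did not pass. The difference between hairpins no longer passed with libraries scaled by totals alone (0.45, adjusted p = 0.0744), or without FOSL1sh3 replicate 3 (0.50, adjusted p = 0.074), FOSL1sh10 replicate 1 (0.57, adjusted p = 0.0735) or FOSL1sh10 replicate 2 (0.60, adjusted p = 0.0818).

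PFKP, the platelet-type and by far the most counted phosphofructokinase, had mean levels of 317 ± 35.2, 352 ± 42.6 and 323 ± 20.6 CPM (SD, n = 3 each) in GFPsh, FOSL1sh3 and FOSL1sh10. Per kilobase its control level was 65.6 CPM, against 3.96 CPM for PFKL and 4.55 CPM for PFKM. The log2 ratio of PFKP to PFKL counts was 3.12, 2.97 and 3.40 in GFPsh and 2.32, 2.69 and 2.80 in FOSL1sh3. The groups did not overlap, and the mean ratio was 0.56 lower in FOSL1sh3 (a difference of -0.56, exact permutation p = 0.1, Benjamini-Hochberg p = 0.225 over 27 ratio tests). PFKFB3 and PFKFB4, which make and break down the phosphofructokinase activator fructose 2,6-bisphosphate, changed by -0.29 and -0.38 with FOSL1sh3 and by 0.05 and -0.48 with FOSL1sh10, and did not pass the test.

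**Figure D3:**
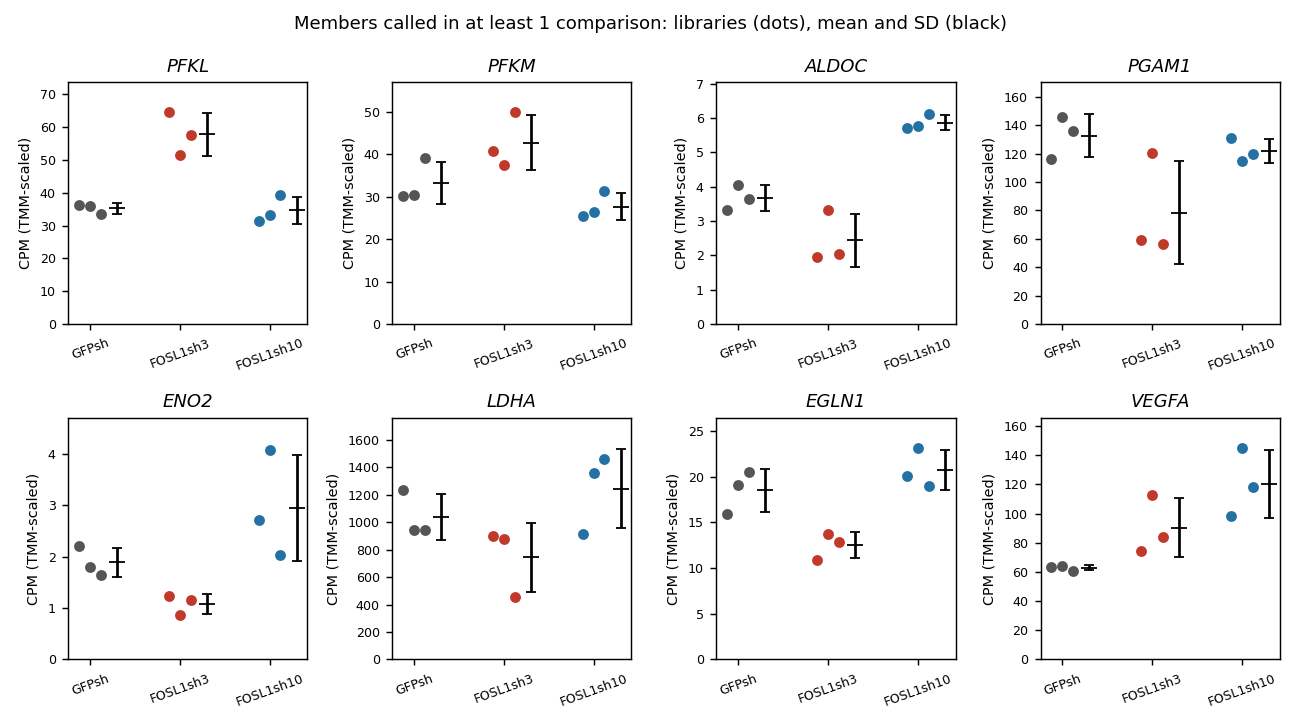
Each panel shows 1 gene called in at least 1 comparison, with TMM-scaled CPM on the vertical axis from 0, a dot for each library, and the mean and SD in black (n = 3 per group). The FOSL1sh3 dots of PFKL stand above all others, the FOSL1sh3 dots of LDHA and EGLN1 stand below all others, and 1 FOSL1sh3 dot of PGAM1 lies among the controls.

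From aldolase to pyruvate kinase, 1 of 8 tested genes fell with FOSL1sh3, where 5.65% of all tested genes were called lower, and 2 of 8 differed between the hairpins, where 12.7% of all tested genes were called. With 8 genes these counts are near the shares over all genes. PGAM1 (chr10:97426160-97433441) converts 3-phosphoglycerate to 2-phosphoglycerate. It stood at 116, 146 and 136 CPM in GFPsh, 59.0, 120.2 and 56.2 CPM in FOSL1sh3, and 131, 115 and 119.7 CPM in FOSL1sh10. Replicates 1 and 3 of FOSL1sh3 lay well below all other libraries, and replicate 2 lay within the control range. The change was -0.76 (SE 0.216, edgeR adjusted p = 0.0299). Leaving out that replicate 2 gave -1.21 (adjusted p = 0.000207). The call was lost without GFPsh replicate 2 (-0.69, adjusted p = 0.0938), GFPsh replicate 3 (-0.75, adjusted p = 0.078), FOSL1sh3 replicate 1 (-0.60, adjusted p = 0.106) or FOSL1sh3 replicate 3 (-0.58, adjusted p = 0.123), and when only the 2 groups were fitted (-0.76, adjusted p = 0.057). Against FOSL1sh10 the difference of -0.64 did not pass (edgeR adjusted p = 0.061), but it passed with the replicate number as a block (-0.71, adjusted p = 0.0215), with DESeq2 (-0.63, adjusted p = 0.0413), with limma-voom (-0.73, adjusted p = 0.028), with library totals alone, without the low-count filter and without FOSL1sh3 replicate 2. PGAM1 has 13 pseudogenes by name, which held 6 to 17 counts in all per library, and reads shared with them would be lost to its count.

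ALDOC, the brain-type aldolase (chr17:28573115-28577264), was low throughout, lowest in FOSL1sh3 and highest in FOSL1sh10. It stood at 3.31, 4.05 and 3.64 CPM in GFPsh, 1.95, 3.32 and 2.04 CPM in FOSL1sh3, and 5.71, 5.77 and 6.11 CPM in FOSL1sh10. FOSL1sh10 lay above all other libraries, and FOSL1sh3 overlapped GFPsh through replicate 2. FOSL1sh3 was below FOSL1sh10 by 1.29 on the log2 scale, a difference of -1.29 (SE 0.296, edgeR adjusted p = 0.00874) that passed in all alternatives run. The changes against GFPsh, -0.61 with FOSL1sh3 and 0.67 with FOSL1sh10, did not pass. Exons of another gene cover 50.2% of the last 500 exon bases of ALDOC, so its counts may be incomplete.

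ENO2 (chr12:6913745-6923698) had a similar order at lower counts. It stood at 2.21, 1.80 and 1.65 CPM in GFPsh, 1.23, 0.866 and 1.15 CPM in FOSL1sh3, and 2.71, 4.07 and 2.04 CPM in FOSL1sh10. FOSL1sh3 lay below all other libraries, and FOSL1sh10 overlapped GFPsh. The difference between hairpins was -1.41 (SE 0.407, edgeR adjusted p = 0.0289). It was lost without FOSL1sh3 replicate 1 (-1.52, adjusted p = 0.0605), replicate 2 (-1.29, adjusted p = 0.0688) or replicate 3 (-1.45, adjusted p = 0.0715), and without FOSL1sh10 replicate 1 (-1.47, adjusted p = 0.0567) or replicate 2 (-1.08, adjusted p = 0.198). ENO1, the ubiquitous enolase and the most counted of the 36 genes, had means of 2502 ± 389, 2410.4 ± 476 and 2429 ± 69.9 CPM and did not pass the test in any of the 3 comparisons. Its log2 fold changes against GFPsh were -0.05 and -0.04, with 95% intervals of -0.39 to 0.28 and -0.38 to 0.29. The log2 ratio of ENO2 to ENO1 counts was 1.32 lower in FOSL1sh3 than in FOSL1sh10 (a difference of -1.32, exact permutation p = 0.1), without overlap.

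The remaining tested enzymes of these steps did not pass the test in any of the 3 comparisons. TPI1, triose phosphate isomerase, changed by -0.19 and -0.06, PGK1, phosphoglycerate kinase, by -0.14 and -0.07, and PKM, pyruvate kinase, by -0.16 and 0.19, in FOSL1sh3 and FOSL1sh10 against GFPsh. PKM was lower in FOSL1sh3 (429.7 to 518 CPM) than in FOSL1sh10 (545 to 627 CPM) without overlap, but the difference of -0.35 did not pass (95% interval -0.66 to -0.05, edgeR adjusted p = 0.123). GAPDH, glyceraldehyde phosphate dehydrogenase, stood at 103 to 160.1 CPM in GFPsh, 108 to 179 CPM in FOSL1sh3 and 104 to 158 CPM in FOSL1sh10, and the groups overlapped throughout.

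LDHA, which with LDHB forms the enzyme that interconverts pyruvate and lactate, stood at 1234, 944 and 943 CPM in GFPsh, 899, 877 and 456 CPM in FOSL1sh3, and 917, 1356 and 1457 CPM in FOSL1sh10. Its gene is at chr11:18394388-18408425. Every FOSL1sh3 library was below every other library, and replicate 3 was far below its 2 companions. FOSL1sh3 was lower than FOSL1sh10 by 0.74 on the log2 scale, a difference of -0.74 (SE 0.222, edgeR adjusted p = 0.0345). The difference was lost without FOSL1sh3 replicate 3 (-0.49, adjusted p = 0.12), without FOSL1sh10 replicate 2 (-0.66, adjusted p = 0.134) or replicate 3 (-0.60, adjusted p = 0.146), and when only the 2 groups were fitted (-0.72, adjusted p = 0.0555). Against GFPsh the changes were -0.48 with FOSL1sh3 (edgeR adjusted p = 0.168), which passed without the low-count filter (-0.49, adjusted p = 0.0256), and 0.26 with FOSL1sh10 (edgeR adjusted p = 0.581).

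SLC16A3, the lactate exporter MCT4, stood at 227, 257 and 239 CPM in GFPsh, 189.8, 333 and 559.8 CPM in FOSL1sh3, and 273, 345 and 205 CPM in FOSL1sh10. The FOSL1sh3 libraries spread from below to far above the controls, with replicate 3 highest, and the change of 0.58 did not pass (SE 0.263, edgeR adjusted p = 0.163). It passed without the low-count filter and without FOSL1sh3 replicate 1, and without that replicate SLC16A3 was also called higher in FOSL1sh3 than in FOSL1sh10. Exons of CSNK1D cover 49% of the last 500 exon bases of SLC16A3, and CSNK1D itself had 1507 to 3455 counts per library. PDK1, the kinase that keeps pyruvate out of the mitochondrial acetyl-CoA path, stood at 1.91 to 3.53 CPM in GFPsh, 1.02 to 2.98 CPM in FOSL1sh3 and 1.71 to 3.51 CPM in FOSL1sh10, with overlap in each comparison.

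HIF1A, which encodes the oxygen-regulated subunit HIF-1 alpha (chr14:61695513-61748259), stood at 25.8, 21.4 and 18.7 CPM in GFPsh, 23.9, 24.4 and 21.3 CPM in FOSL1sh3, and 22.8, 35.7 and 19.3 CPM in FOSL1sh10. The 3 groups overlapped, with FOSL1sh10 replicate 2 above the rest. Its log2 fold change was 0.08 with FOSL1sh3 (95% interval -0.36 to 0.52) and 0.24 with FOSL1sh10 (95% interval -0.19 to 0.68). HIF-1 alpha is controlled largely through protein stability, which RNA counts do not measure.

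EGLN1 encodes PHD2, the main prolyl hydroxylase that marks HIF-1 alpha (chr1:231363751-231425044). It stood at 15.9, 19.1 and 20.5 CPM in GFPsh, 10.9, 13.7 and 12.9 CPM in FOSL1sh3, and 20.1, 23.2 and 19.0 CPM in FOSL1sh10. FOSL1sh3 lay below all other libraries, while FOSL1sh10 overlapped GFPsh. FOSL1sh3 was lower than FOSL1sh10 by 0.74 on the log2 scale, a difference of -0.74 (SE 0.183, edgeR adjusted p = 0.0138), which was lost without FOSL1sh3 replicate 1 (-0.64, adjusted p = 0.0552) or FOSL1sh10 replicate 2 (-0.64, adjusted p = 0.0859). Against GFPsh the change of -0.58 fell just short (SE 0.184, edgeR adjusted p = 0.0521), and it passed with DESeq2 (adjusted p = 0.042), with library totals alone (-0.64, adjusted p = 0.0386) and without FOSL1sh3 replicate 2 (-0.65, adjusted p = 0.0439). EGLN3, the hydroxylase PHD3, was at 1.43 to 4.38 CPM over all libraries and did not pass the test in any of the 3 comparisons.

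VEGFA, the secreted growth factor of blood vessels (chr6:43770184-43786487), was the hypoxia-induced gene that rose. It stood at 63.7, 63.9 and 60.8 CPM in GFPsh, 74.2, 113 and 83.9 CPM in FOSL1sh3, and 98.6, 145 and 118 CPM in FOSL1sh10. All 6 hairpin libraries lay above all 3 controls. The rise with FOSL1sh10 was 0.94 (SE 0.169, edgeR adjusted p = 0.00205) and it passed in all alternatives run. With FOSL1sh3 the change was 0.52 (SE 0.169, edgeR adjusted p = 0.0546). That change passed with DESeq2 (0.52, adjusted p = 0.039), with the replicate number as a block (0.50, adjusted p = 0.0374), without the low-count filter (0.51, adjusted p = 0.0345) and without FOSL1sh3 replicate 1 (0.64, adjusted p = 0.0317). The hairpins differed by -0.42 in VEGFA (95% interval -0.77 to -0.07, edgeR adjusted p = 0.106), a difference that passed with library totals alone (-0.59, adjusted p = 0.0271) and without FOSL1sh3 replicate 2 (-0.61, adjusted p = 0.0207). ADM, the vasodilator adrenomedullin, changed by 0.16 and 0.10 against GFPsh. CA9, a carbonic anhydrase that is a common marker of hypoxic tumour cells, was low, at 3.17 to 4.19 CPM in GFPsh, 1.59 to 3.56 CPM in FOSL1sh3 and 2.45 to 4.64 CPM in FOSL1sh10, and the groups overlapped.

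Among the other hypoxia-induced genes 6 of 8 were tested, and 0 were called by edgeR in any of the 3 comparisons, where 10.9%, 5.28% and 12.7% of all tested genes were called, so that with 6 genes a count of 0 is near those shares. At an unadjusted p under 0.05 there were 3 with FOSL1sh3, 2 with FOSL1sh10 and 1 between the hairpins, and DESeq2 also called 0. DDIT4, the stress-induced inhibitor of mTORC1 signalling (chr10:72273920-72276036), stood at 41.7, 72.7 and 50.6 CPM in GFPsh, 25.2, 53.5 and 36 CPM in FOSL1sh3, and 41.9, 28 and 29.2 CPM in FOSL1sh10. Each hairpin overlapped the controls in 1 library or more. The changes were -0.53 (edgeR adjusted p = 0.161) and -0.74 (edgeR adjusted p = 0.0842). The FOSL1sh10 change passed without the low-count filter (-0.75, adjusted p = 0.00113) and with only the 2 groups fitted (-0.75, adjusted p = 0.0203), and the FOSL1sh3 change passed without the filter (-0.55, adjusted p = 0.0304) and without FOSL1sh3 replicate 2 (-0.85, adjusted p = 0.0263). Exons of another gene cover 56.2% of the last 500 exon bases of DDIT4.

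MXI1, a MAX partner that opposes MYC, stood at 10.6, 8.33 and 10.0 CPM in GFPsh, 16.8, 13.1 and 12.9 CPM in FOSL1sh3, and 11, 16.8 and 15.8 CPM in FOSL1sh10. All hairpin libraries were above the controls, and the changes of 0.57 (edgeR adjusted p = 0.0935) and 0.60 (edgeR adjusted p = 0.115) did not pass. P4HA1, a collagen prolyl hydroxylase, was below the controls in all FOSL1sh3 libraries, at 3.69 to 5.85 CPM against 7.31 to 9.00 CPM, and the change of -0.72 did not pass (edgeR adjusted p = 0.0985). NDRG1, KDM3A, a histone demethylase, and BNIP3L, a mitophagy receptor, changed by 0.05, 0.24 and 0.04 with FOSL1sh3 and by 0.11, 0.28 and 0.21 with FOSL1sh10, and did not pass.

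The 4 genes with too few counts to test were ALDOA, LDHB, BNIP3 and ANKRD37. ALDOA, the main aldolase of most cells, had 0 to 7 counts per library, and LDHB, the other lactate dehydrogenase subunit, had 2 counts in FOSL1sh3 replicate 1 and 0 in the other 8 libraries. BNIP3, a mitophagy receptor, had 0 to 3 counts, and ANKRD37 had 2 to 13. By the counting annotation (GENCODE 28), 75.2% of the last 500 exon bases of ALDOA and 70.0% of those of ANKRD37 lie in exons of other genes, where the counting as run assigns a read to no gene. For LDHB and BNIP3 this share was 0%. BNIP3 has 39 pseudogenes by name, which held 0 to 2 counts in all per library, and GAPDH has 62, with 40 to 82 counts, and reads shared with such copies would be lost to the gene. For LDHB and BNIP3 little RNA and a loss in counting cannot be told apart from these counts. GAPDH had the highest share, 84.4%, at a mean control level of 135 ± 29.2 CPM. Levels of LDHB, BNIP3, GAPDH, ALDOA, ANKRD37, BNIP3L (66.0%), DDIT4, ALDOC and SLC16A3 are uncertain. The part of this overlap in any result was not tested.

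**Figure D4:**
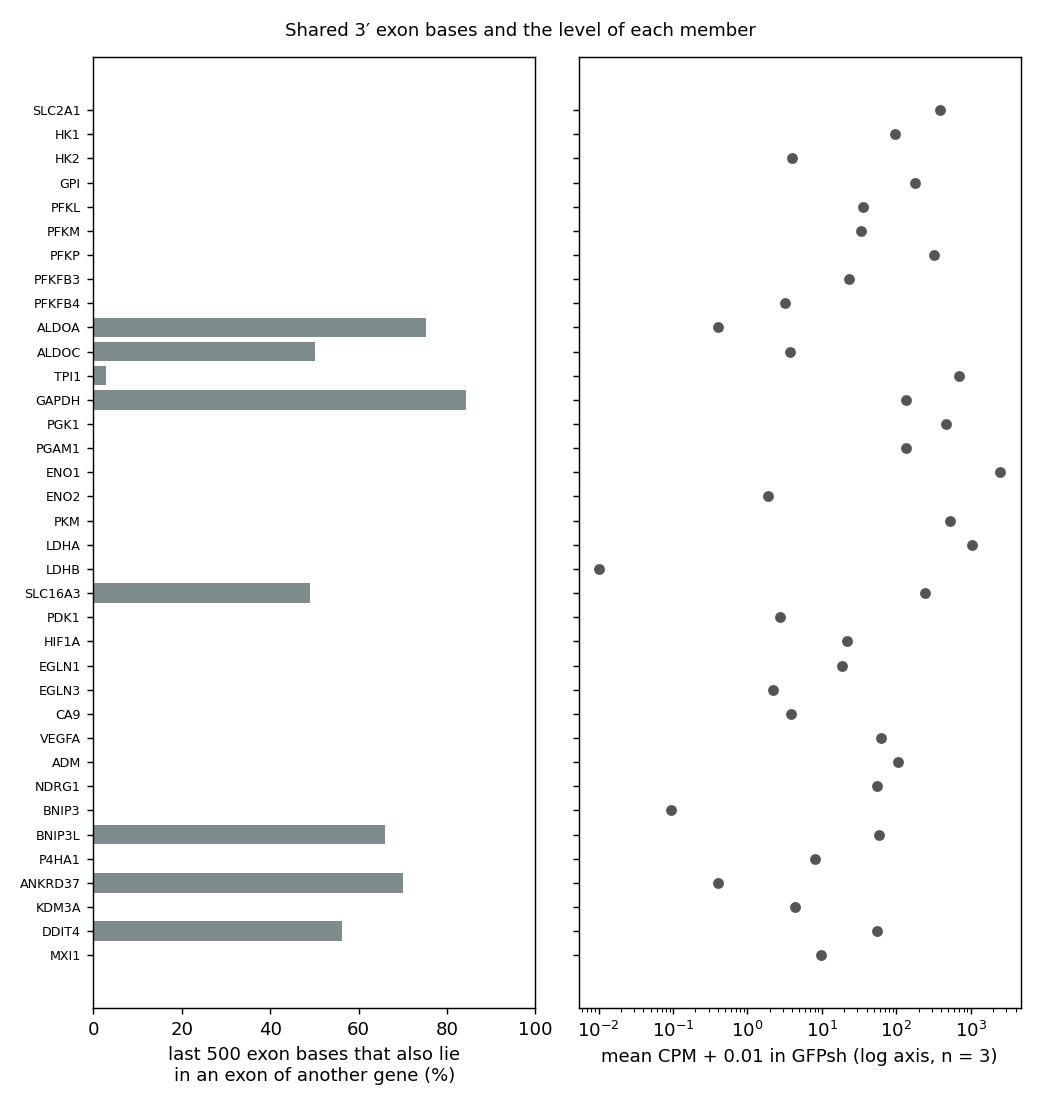
The left panel gives, for each of the 36 genes, the percentage of its last 500 exon bases that also lie in an exon of another gene, and the right panel gives its mean CPM plus 0.01 in GFPsh on a log axis. The bar is 84.4% for GAPDH and 75.2% for ALDOA, and 0% for LDHB and BNIP3, which lie at the low end of the level axis.

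Genes of the same pathways outside the 36 were followed as lists. These lists were chosen with earlier results of these data known, so no excess is read from their shares here or below. Of 38 other glycolysis and pyruvate genes 23 were tested. With FOSL1sh3, 0 rose and 3 fell (13.0%, against 10.9% of all tested genes), and the median was -0.40. The 3 were DLAT and, named after their values were seen, TIGAR, a fructose 2,6-bisphosphatase, and MPC1, a subunit of the mitochondrial pyruvate carrier. With FOSL1sh10, 1 rose and 1 fell (8.70%, against 5.28%), and the median was 0.04. PDP1, a phosphatase that activates pyruvate dehydrogenase, stood at 3.03, 3.26 and 3.86 CPM in GFPsh, 2.36, 1.88 and 3.69 CPM in FOSL1sh3, and 9.56, 7.46 and 7.85 CPM in FOSL1sh10. Its FOSL1sh10 libraries lay above all others. The rise with FOSL1sh10 was 1.28 (SE 0.281, edgeR adjusted p = 0.0106), lost without GFPsh replicate 1 (1.20, adjusted p = 0.0537) or FOSL1sh10 replicate 1 (1.17, adjusted p = 0.0524), and the hairpins differed by -1.64 (SE 0.291, edgeR adjusted p = 0.00149). SLC2A3, the glucose transporter GLUT3, stood at 3.64 to 6.08 CPM in GFPsh, 4.62 to 4.96 CPM in FOSL1sh3 and 1.47 to 2.71 CPM in FOSL1sh10. It fell by 1.16 with FOSL1sh10 (edgeR adjusted p = 0.0492), a call that was lost in each of the 6 fits that left out a library of those groups (adjusted p from 0.0518 to 0.223), with the replicate number as a block (adjusted p = 0.0641), with limma-voom (adjusted p = 0.0618) and under scaling by totals (adjusted p = 0.063). DLAT, a subunit of pyruvate dehydrogenase, fell by 0.80 with FOSL1sh3 (edgeR adjusted p = 0.0323), which was lost without any of GFPsh replicates 1, 2 and 3 and without FOSL1sh3 replicate 1 or 3 (adjusted p from 0.0684 to 0.119). Exons of another gene cover 42.4% of the last 500 exon bases of DLAT, so its counts may be incomplete. SLC16A1, the lactate transporter MCT1, was 0.74 lower in FOSL1sh3 than in FOSL1sh10 on the log2 scale, a difference of -0.74 (edgeR adjusted p = 0.0103), lost without FOSL1sh10 replicate 2 (-0.61, adjusted p = 0.076).

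Of 46 other hypoxia-induced genes 36 were tested. With FOSL1sh3, 3 rose and 7 fell (27.8%, against 10.9% of all tested genes), and with FOSL1sh10, 5 rose and 0 fell (13.9%, against 5.28%). The medians were -0.06 and 0.05. The 7 that fell, with log2 fold changes from -0.88 to -0.50, were TFRC and, named after their values were seen, ERO1A, an oxidase of the endoplasmic reticulum, STC2, INSIG2, the transcription repressor BHLHE40, the adenylate kinase AK4 and ZNF395. The 5 that rose with FOSL1sh10 were TXNIP, ANGPTL4, TFRC and, named in the same way, P4HA2 and BHLHE41. TXNIP, which restrains glucose uptake and binds thioredoxin, stood at 40.4, 44.7 and 42.4 CPM in GFPsh, 92.8, 94.8 and 85.5 CPM in FOSL1sh3, and 105, 101 and 89.7 CPM in FOSL1sh10. It rose by 1.10 (SE 0.133, edgeR adjusted p = 8.51e-05) and 1.21 (edgeR adjusted p = 2.19e-05), with every hairpin library above every control. ANGPTL4, a secreted inhibitor of lipoprotein lipase, stood at 83.0, 87.3 and 65.0 CPM in GFPsh, 132, 135 and 135 CPM in FOSL1sh3, and 132, 129.8 and 138 CPM in FOSL1sh10. It rose by 0.78 and 0.76 (edgeR adjusted p = 0.00218 each).

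TFRC, the transferrin receptor, moved in opposite directions, at 202, 214 and 225 CPM in GFPsh, 130.4, 143 and 125 CPM in FOSL1sh3, and 313, 302 and 296 CPM in FOSL1sh10. It fell by 0.69 with FOSL1sh3 (edgeR adjusted p = 0.0029), rose by 0.51 with FOSL1sh10 (edgeR adjusted p = 0.0235), and differed by -1.19 between them (edgeR adjusted p = 1.2e-05). The rise with FOSL1sh10 no longer passed without GFPsh replicate 1 or 2 or without any of FOSL1sh10 replicates 1, 2 and 3 (adjusted p from 0.0733 to 0.126).

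Among 19 tested genes of HIF subunits, oxygen sensing and degradation (21 listed), 1 rose and 1 fell with FOSL1sh3 (10.5%, against 10.9%), and 0 were called by edgeR with FOSL1sh10, where 3 had an unadjusted p under 0.05. EPAS1, which encodes HIF-2 alpha, stood at 124, 139 and 160.1 CPM in GFPsh, 173, 229 and 328 CPM in FOSL1sh3, and 161, 171 and 159 CPM in FOSL1sh10. Every FOSL1sh3 library was above every other library, with replicate 3 highest. The rise with FOSL1sh3 was 0.78 (SE 0.183, edgeR adjusted p = 0.0117), lost without GFPsh replicate 1 (0.72, adjusted p = 0.0638) or FOSL1sh3 replicate 3 (0.51, adjusted p = 0.0588), and the change with FOSL1sh10 was 0.21 (edgeR adjusted p = 0.581). SIAH1, a ubiquitin ligase that acts on prolyl hydroxylases, stood at 7.59 to 12.3 CPM in GFPsh, 3.49 to 6.64 CPM in FOSL1sh3 and 6.85 to 9.50 CPM in FOSL1sh10. It fell by 1.13 with FOSL1sh3 (SE 0.278, edgeR adjusted p = 0.0154), which was lost without GFPsh replicate 3 (-0.96, adjusted p = 0.0728), FOSL1sh3 replicate 1 (-0.95, adjusted p = 0.0587) or FOSL1sh3 replicate 3 (-1.04, adjusted p = 0.0556). Of the last 500 exon bases of SIAH1, 29.4% also lie in exons of another gene, so its counts may be incomplete.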

How the data were processed

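The authors deposited raw counts, 1 file for each library, as integers per gene without normalization. Per the labels' protocols, libraries of total RNA were made by the low-input MARS-seq method, which tags transcripts near their 3′ ends, from RNA with a quality number above 7. FastQC 0.11.5 for quality, STAR 2.5.3a with hg38 and featureCounts 1.6.0 are named per the submitters' processing notes. Per the file headers, exons of GENCODE release 28 were counted by gene, with no strand, multi-mapping or overlap option set. Reads in exons of several genes, on either strand, are thus assigned to no gene. The use of molecular identifiers to collapse reads is not stated.

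From the counts, edgeR 4.0.16 (R 4.3.3) was run with filterByExpr (minimum count 10 and minimum total 15) and TMM. All 9 libraries entered a quasi-likelihood F test with the group as its only term. Calls were made at adjusted p under 0.05, with Benjamini-Hochberg adjustment over 12814 genes. The 36 genes and the other lists were chosen with earlier results of these data known. SE was obtained from the log2 fold change divided by the root of F, and intervals are 95%. CPM values are TMM-scaled and mean ± SD are over 3 libraries. The biological coefficient of variation was 16.4%. Ratios of isoenzyme counts used an offset of 0.5 counts and an exact two-sided permutation test. The edgeR script was tested on simulated counts.

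Sample titles gave the groups and replicate numbers. No 2 libraries held identical values. Of 58381 genes, 57754 matched a symbol. Named in full were FOSL1, members called in at least 1 comparison, HIF1A, the member of each of 7 role groups with the smallest p, and up to 4 called genes of each other list. Of these, 1 gene is not reported here. Per-library values of SLC2A1, SLC16A3 and MXI1 were added after the values were seen. Alternatives were library totals alone, DESeq2 1.42.0, limma-voom (limma 3.58.1), no low-count filter, only the 2 groups compared, the replicate number as a block, each library left out, and an offset of 5 counts for ratios. Coordinates are hg38, counted from 1. Motifs were searched on both strands of RefSeq windows (GRCh38.p14). Pseudogenes were taken by name from GENCODE 29.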

Additional observations from a re-analysis of the deposited data

Results flagged for a closer look

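For 6 genes the change with FOSL1sh3 differed from that with FOSL1sh10 by the edgeR test of FOSL1sh3 against FOSL1sh10, where 12.7% of all tested genes were called. PFKL was 0.74 higher on the log2 scale in FOSL1sh3 (adjusted p = 0.00311), with all 3 FOSL1sh3 libraries above all 3 FOSL1sh10 libraries. PFKM was 0.62 higher (adjusted p = 0.0194), again without overlap. ALDOC differed by -1.29 (adjusted p = 0.00874), ENO2 by -1.41 (adjusted p = 0.0289), LDHA by -0.74 (adjusted p = 0.0345) and EGLN1 by -0.74 (adjusted p = 0.0138), each with all FOSL1sh3 libraries below all FOSL1sh10 libraries. FOSL1 itself differed between these hairpins by -0.05 (adjusted p = 0.9). The calls of PFKM, ENO2, LDHA and EGLN1 each depended on single libraries.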

How the results depend on the processing

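With FOSL1sh3, the 2 called genes became 6 without the low-count filter, 1 with only the 2 groups compared and 4 with DESeq2, and ranged from 1 to 4 when 1 library was left out. With FOSL1sh10, the 1 called gene became 2 with library totals alone, 2 without the filter and 3 with only the 2 groups compared, and stayed at 1 in each fit without 1 library. Between the hairpins, the 6 called genes became 10 with library totals alone and ranged from 2 to 7 when 1 library was left out. The causes were not tested, and the shares of all genes called under these alternatives were not counted. The calls of PFKL with FOSL1sh3, VEGFA with FOSL1sh10, and PFKL and ALDOC between the hairpins held in all alternatives run. No named value changed direction while called. The log2 ratio of ALDOC to ALDOA between the hairpins, -3.38 with an offset of 0.5 counts, was -1.90 with an offset of 5, since ALDOA had at most 7 counts.

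The replicate number as a block gave 3, 1 and 7 called genes for FOSL1sh3, FOSL1sh10 and the hairpins against each other. The labels do not say that equal numbers mark a shared day or batch. For that reason the main fit did not treat the numbers as pairs. Correlations of deviations from the group means between libraries of equal number were 0.183, 0.0291 and 0.129 for GFPsh and FOSL1sh3, -0.116, -0.0953 and 0.0379 for GFPsh and FOSL1sh10, and -0.0448, 0.0323 and -0.0208 for FOSL1sh3 and FOSL1sh10. Between libraries of unequal number they ran from -0.165 to 0.0333, from -0.0696 to 0.156 and from -0.0583 to 0.0831 in the same order. For GFPsh and FOSL1sh3, the equal-number values of replicates 1 and 3 lay above the unequal-number range. ALDOA, LDHB, BNIP3 and ANKRD37 had too few counts to be tested, and the cause was not tested. Intervals were wide for the low-count genes ENO2, PDK1, EGLN3 and PFKFB4. Median 95% intervals over the tested members reached 0.403, 0.397 and 0.402 on either side of the log2 fold change in the 3 comparisons.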

Other observations

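The branches that leave glycolysis also held called genes with FOSL1sh3. Of 22 pentose phosphate and glycogen genes 19 were tested. This list too was chosen with earlier results of these data known, so no excess is read from its share. With this hairpin 3 rose and 3 fell (31.6%, against 10.9% of all tested genes), and edgeR called 0 with FOSL1sh10, where 3 had an unadjusted p under 0.05. UGP2, which makes UDP-glucose for glycogen, stood at 38.2, 35.0 and 34.4 CPM in GFPsh, 15.3, 24.7 and 14.1 CPM in FOSL1sh3, and 28.1, 33.6 and 27.3 CPM in FOSL1sh10. It fell with FOSL1sh3 (95% interval of the log2 fold change -1.41 to -0.59, SE 0.194, edgeR adjusted p = 0.00378), with 3 of 3 FOSL1sh3 libraries below all controls. H6PD, the glucose 6-phosphate dehydrogenase of the endoplasmic reticulum, stood at 6.35, 6.41 and 5.84 CPM in GFPsh, 10.3, 10.5 and 16.0 CPM in FOSL1sh3, and 9.13, 8.26 and 6.01 CPM in FOSL1sh10. It rose by 0.98 with FOSL1sh3 (SE 0.241, edgeR adjusted p = 0.0154), lost without GFPsh replicate 3 (0.94, adjusted p = 0.0581) or FOSL1sh3 replicate 3 (0.74, adjusted p = 0.0805). RPIA, ribose 5-phosphate isomerase, fell by 0.64 with FOSL1sh3 (edgeR adjusted p = 0.0187), lost without GFPsh replicate 1 (-0.55, adjusted p = 0.104) or replicate 2 (-0.61, adjusted p = 0.058). PYGB, the brain-type glycogen phosphorylase, was 0.55 higher in FOSL1sh3 than in FOSL1sh10 (edgeR adjusted p = 0.0146), lost with library totals alone (0.38, adjusted p = 0.0704) and without FOSL1sh3 replicate 3 (0.41, adjusted p = 0.0594), FOSL1sh10 replicate 2 (0.57, adjusted p = 0.0543) or FOSL1sh10 replicate 3 (0.54, adjusted p = 0.058).

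Of 10 biliary and epithelial markers, all tested, 2 rose and 0 fell with FOSL1sh3 (against 10.9% of all tested genes called), 1 rose and 0 fell with FOSL1sh10 (against 5.28%), and 2 were higher and 2 lower in FOSL1sh3 than in FOSL1sh10 (against 12.7%). Called or not, the log2 fold changes with FOSL1sh3 were above 0 for 6 markers and below 0 for 4. KRT7, a biliary keratin, rose by 0.71 with FOSL1sh10 (edgeR adjusted p = 0.00456), which held in all alternatives run. Its rise of 0.46 with FOSL1sh3 (edgeR adjusted p = 0.0432) was lost without any of GFPsh replicates 1, 2 and 3, without FOSL1sh3 replicate 1 or 3 (adjusted p from 0.0955 to 0.132), and in 4 other alternatives, among them the replicate block (adjusted p = 0.0507). KRT19, another biliary keratin, was 0.50 higher in FOSL1sh3 than in FOSL1sh10 (edgeR adjusted p = 0.0243), lost under scaling by totals (0.33, adjusted p = 0.0938) and without FOSL1sh3 replicate 1 or 3 or FOSL1sh10 replicate 1 or 2 (adjusted p from 0.0541 to 0.123). MUC1, an apical mucin, rose by 0.88 with FOSL1sh3 (edgeR adjusted p = 0.00124) and changed by 0.10 with FOSL1sh10 (edgeR adjusted p = 0.775). SOX9, a biliary transcription factor, was 0.80 lower on the log2 scale in FOSL1sh3 than in FOSL1sh10, a difference of -0.80 (edgeR adjusted p = 0.00189). Against GFPsh, SOX9 did not pass with FOSL1sh3 in the main fit. It was called lower with DESeq2 (-0.46, adjusted p = 0.0441), with library totals alone (-0.52, adjusted p = 0.0337) and without FOSL1sh3 replicate 2 (-0.56, adjusted p = 0.0294). EPCAM, an epithelial adhesion molecule named after its values were seen, was lower in FOSL1sh3 than in FOSL1sh10, a difference of -0.49 (edgeR adjusted p = 0.0343). SERPINA1, listed as a hepatocyte marker, rose by 1.27 with FOSL1sh10, from 5.40 to 7.03 CPM in GFPsh to 13.6 to 17.5 CPM (edgeR adjusted p = 0.00141), while 9 of the 10 hepatocyte markers had at most 10 counts in every library. Of the 10 leukocyte markers 3 were tested, and 0 were called against GFPsh with either hairpin. CORO1A, listed as a leukocyte marker, was called lower in FOSL1sh3 than in FOSL1sh10, a difference of -0.96. That call held in all alternatives run, with an edgeR adjusted p from 0.00591 to 0.0396 when 1 library was left out. Whether these levels bear on the glycolytic and hypoxia-induced genes was not tested.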
